A study of Homo sapiens with 15 samples.

Results

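The genes described are 10 heat shock chaperones and cochaperones of the cytosol and mitochondria: HSP90AA1, HSP90AB1, HSPA8, HSPH1, HSPA4L, DNAJA1, FKBP4, CHORDC1, HSPD1 and HSPE1. They were taken by name, with every non-control probe set that the platform annotation gives to 1 of them alone, and they were selected on values of these same arrays, with the lower levels of heat shock genes in infliximab-treated cells already known. Of the 10 genes, 9 had a probe set of their own, out of 19777 such genes in the series, which made 26 of the 54613 non-control probe sets. HSPA8 had 4 probe sets, each shared in the annotation with small nucleolar RNA genes that lie in its introns, so no level is given for it. A filter on low values kept 23 of the 26 probe sets and all 9 genes.

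RNA came from THP-1 cells, a human line from an acute monocytic leukaemia. The cells were exposed to infliximab for 6 h, to infliximab for 24 h, to CDP870 for 6 h or to CDP870 for 24 h, or were left untreated (0 h). Each of these 5 groups had 3 arrays. Infliximab is a chimeric IgG1 antibody to tumour necrosis factor (TNF), and CDP870, known as certolizumab pegol, is an anti-TNF Fab' fragment joined to polyethylene glycol, with no Fc part. The doses and culture conditions are not used here because no label states them, and no group received an unrelated antibody. The untreated cells were sampled at 0 h only, so a comparison with them holds the agent and the time in culture together, whereas infliximab and CDP870 can be compared at the same time.

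Molecular chaperones bind unfolded or partly folded proteins and help them reach or keep their shape. HSP70 proteins such as HSPA8 take up short exposed stretches with the help of J-domain proteins, and nucleotide exchange factors such as HSPH1 release them. HSP90 proteins receive part of these clients, among them kinases and steroid receptors, together with cochaperones such as FKBP4. In mitochondria, HSPD1 and its lid HSPE1 form a closed chamber in which imported proteins fold. Many of these genes are transcribed at a high basal rate and are induced further by heat shock factor 1 (HSF1), which binds inverted repeats of a short element, the heat shock element, in their promoters.

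The promoters of 5 measured members are shown because they hold a match to such an element, a feature of sequence apart from any array value. Whether HSF1 acts on these genes in these cells was not tested. Each sequence is a RefSeq window of GRCh38.p14 from 250 bases before to 50 bases after an annotated start. It is written 5′ to 3′ on the gene's own strand. Capitals mark every match to 3 alternating units, with overlapping matches joined. The units are GAA, TTC and GAA, or the reverse complement TTC, GAA and TTC, with any 2 bases between neighbouring units. The HSP90AA1 window lies at chr14:102086995-102087294 on the minus strand, that of HSP90AB1 at chr6:44247693-44247992 on the plus strand and that of DNAJA1 at chr9:33025023-33025322 on the plus strand. The CHORDC1 window lies at chr11:90223000-90223299 and the HSPD1 window at chr2:197499791-197500090, both on the minus strand.
HSP90AA1: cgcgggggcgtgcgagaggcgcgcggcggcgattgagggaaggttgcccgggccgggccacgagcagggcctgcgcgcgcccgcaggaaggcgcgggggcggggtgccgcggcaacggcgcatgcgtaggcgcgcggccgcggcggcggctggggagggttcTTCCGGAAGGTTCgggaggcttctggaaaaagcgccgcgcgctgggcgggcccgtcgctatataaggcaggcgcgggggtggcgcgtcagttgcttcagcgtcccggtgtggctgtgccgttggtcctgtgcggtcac
HSP90AB1: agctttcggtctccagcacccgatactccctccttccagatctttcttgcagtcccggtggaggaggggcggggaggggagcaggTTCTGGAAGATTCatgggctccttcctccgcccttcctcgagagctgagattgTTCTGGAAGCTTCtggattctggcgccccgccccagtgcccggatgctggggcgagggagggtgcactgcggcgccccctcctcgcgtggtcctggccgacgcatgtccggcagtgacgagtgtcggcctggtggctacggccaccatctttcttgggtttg
DNAJA1: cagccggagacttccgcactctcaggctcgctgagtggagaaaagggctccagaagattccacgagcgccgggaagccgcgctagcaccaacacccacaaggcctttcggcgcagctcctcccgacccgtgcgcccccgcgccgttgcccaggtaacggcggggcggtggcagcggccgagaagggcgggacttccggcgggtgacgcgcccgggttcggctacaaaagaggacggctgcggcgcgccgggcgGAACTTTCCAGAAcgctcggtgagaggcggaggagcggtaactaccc
CHORDC1: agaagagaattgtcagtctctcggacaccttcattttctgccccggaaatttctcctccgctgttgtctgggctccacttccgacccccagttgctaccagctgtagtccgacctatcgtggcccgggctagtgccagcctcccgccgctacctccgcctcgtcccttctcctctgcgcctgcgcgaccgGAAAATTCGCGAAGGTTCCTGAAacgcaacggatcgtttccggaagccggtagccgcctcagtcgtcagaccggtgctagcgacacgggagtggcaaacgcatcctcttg
HSPD1: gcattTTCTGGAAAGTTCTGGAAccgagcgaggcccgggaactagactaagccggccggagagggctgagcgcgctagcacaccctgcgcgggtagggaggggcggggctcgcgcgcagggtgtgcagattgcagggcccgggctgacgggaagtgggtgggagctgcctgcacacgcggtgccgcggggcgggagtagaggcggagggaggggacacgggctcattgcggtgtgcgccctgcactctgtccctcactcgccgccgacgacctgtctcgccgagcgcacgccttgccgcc

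The 3-unit motif stood in 172 of 35116 promoter windows in the table (0.49%) and in 166 of the 27305 genes with a window (0.608%). Among the 9 of the 10 chaperone genes that have a window it stood in 6 (66.7%): the 5 genes printed and HSPA8, the constitutive cytosolic HSP70. By window it stood in 6 of their 15 (40%), since some genes have windows at more than 1 start. Other windows of HSP90AA1 and HSP90AB1, at starts further upstream, hold no match. The windows with a match in HSP90AA1, HSP90AB1 and HSPA8 lie inside the gene as annotated. HSP90AB1 and HSPA8 each held 2 separate matches. Positions were counted from the start site of the window that holds the match. They ran from -245 to -228 in HSPD1, and from -165 to -153 and from -112 to -100 in HSP90AB1. In HSP90AA1 they ran from -88 to -76, and in CHORDC1 from -60 to -38. The DNAJA1 match lay from 4 to 16, just after the start. The runs in CHORDC1 (23 bases) and HSPD1 (18 bases) hold more than 3 units. These letters were not in the windows of HSPH1, HSPA4L and HSPE1, and FKBP4 is not in the table. A shorter motif of 2 units, GAANNTTC or TTCNNGAA, is contained in the longer one. By gene it was in 16.2% of all genes with a window and in 7 of the 9 chaperone genes (77.8%). By window it was in 13.5% of all windows and in 7 of the 15 chaperone windows (46.7%). A match is a run of letters and does not show that the site is bound.

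**Figure D1:**
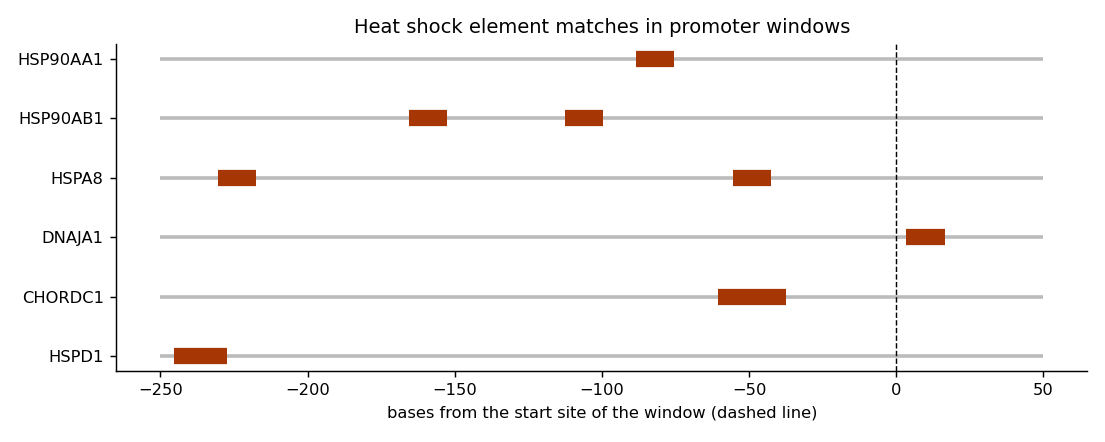
Matches to the 3-unit heat shock motif (blocks) in the promoter windows of the 6 chaperone genes that hold one, with bases from the start site (dashed line) on the horizontal axis and 1 window on each line. The matches of HSP90AA1, HSP90AB1, HSPA8, CHORDC1 and HSPD1 lie before the start site of the window shown and that of DNAJA1 just after it.

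HSPD1 and HSPE1 stand head to head on chromosome 2, with 104 bases between the annotated genes, HSPD1 at positions 197486584 to 197500274 and HSPE1 at 197500379 to 197503449. The motif printed in the HSPD1 window lies inside the HSPD1 gene as annotated, because the table gives this gene 2 windows. It is 188 bases from the outermost HSPD1 start and 293 bases from the HSPE1 start.

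Every level below is a log2 probe set summary as deposited, and for a gene with several tested probe sets it is that of the probe set with the highest mean over all arrays. Values of a group are given in the order of the replicate numbers: 8, 9 and 10 for infliximab at 6 h, 5, 6 and 7 for infliximab at 24 h, 14, 15 and 16 for CDP870 at 6 h, 11, 12 and 13 for CDP870 at 24 h, and 2, 3 and 4 for 0 h. Differences are log2 differences of group means with their standard errors (SE, n = 3 arrays a group). A call is a limma adjusted p under 0.05 over all 28897 tested probe sets. For the chaperone genes themselves the calls describe values that were known when the genes were chosen, so nothing is inferred from them and p-values are printed for the comparison of CDP870 at 24 h with 6 h alone.

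The arrays had similar distributions, with medians of the non-control probe sets between 2.93 and 3.07. Replicates 5 and 6 of infliximab at 24 h and replicate 3 at 0 h correlated least with the other arrays, and counts are given with and without these 3. Leaving them out keeps replicate 7 as the only infliximab 24 h array, so infliximab 24 h results without them rest on that array. Replicate 6 of infliximab at 24 h had the highest 3′ minus 5′ difference of GAPDH (0.24) and ACTB (0.27). The mean of 18 spike-in probe sets was 7.75 ± 0.04 with infliximab at 6 h, 7.51 ± 0.15 with infliximab at 24 h, 7.50 ± 0.12 with CDP870 at 6 h, 7.60 ± 0.20 with CDP870 at 24 h and 7.38 ± 0.13 at 0 h (SD, n = 3 each). Of 8 measured monocyte and THP-1 markers, 7 lay above the array median on all 15 arrays, while the monocyte marker CD14 did so on 2 arrays. The mean over 7 epithelial markers ran from 5.64 to 5.90 with infliximab at 6 h and from 5.74 to 5.81 at 24 h, from 4.96 to 5.11 with CDP870 at 6 h and from 5.01 to 5.10 at 24 h, and from 5.31 to 5.49 at 0 h. Of these, EPCAM, KRT5, KRT8, KRT18 and KRT19 lay above the array median on all 15 arrays, while CDH1 and KRT14 stayed below it on every array. The means of the lists for T and NK cells, B cells, fibroblasts and erythroid cells stayed between 2.66 and 4.20. On all 15 arrays, 3 of 6 measured T and NK cell markers and 3 of 4 B cell markers lay above the array median. So did 1 of 5 fibroblast markers and 1 of 2 erythroid markers. In such bulk RNA, fewer cells of a type and less RNA per cell cannot be told apart, and the part of these markers and of the spike-ins in the results below was not tested.

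The shared pattern of the 9 measured genes was a lower level with infliximab than in untreated or CDP870-treated cells, at both times. The median log2 difference from 0 h was -0.37 after 6 h and -0.53 after 24 h of infliximab, beside -0.05 and -0.02 over all 13607 genes tested. With CDP870 it was 0.03 after 6 h and 0.05 after 24 h, beside -0.01 and -0.04 over all genes. These comparisons share the 0 h arrays. Measured against CDP870 at the same time, infliximab gave a median of -0.46 at 6 h and -0.59 at 24 h, beside -0.05 and 0.02 over all genes.

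**Figure D2:**
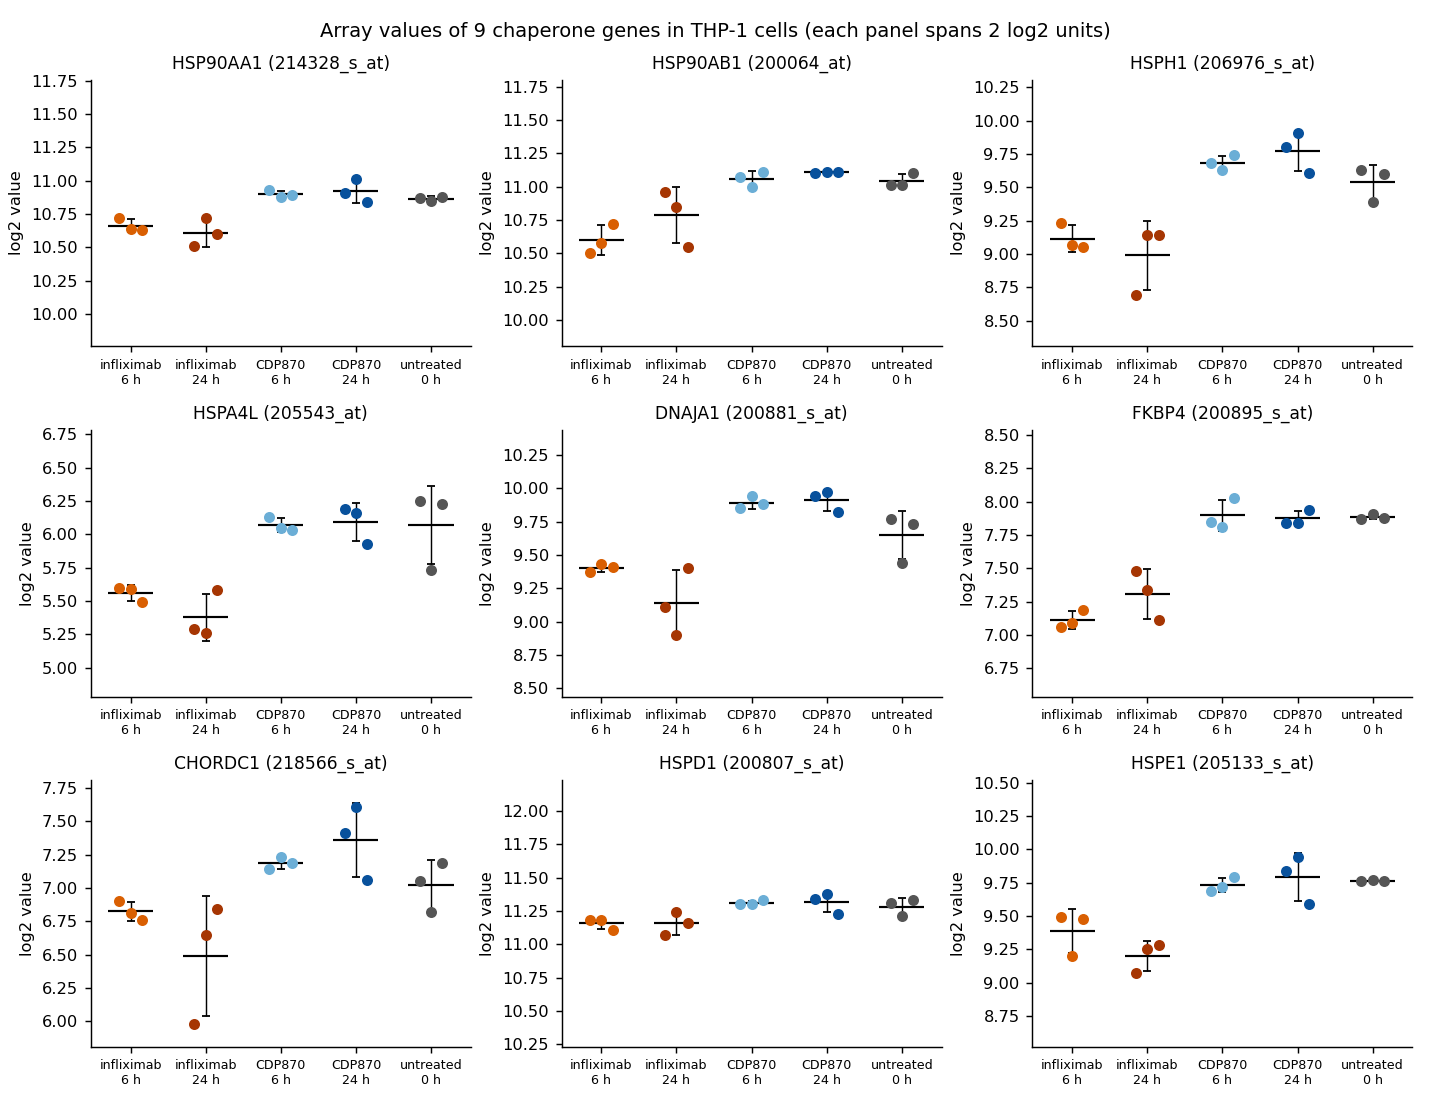
Log2 value of the 9 measured chaperone genes on each array (points), with the group mean (horizontal line) and SD (vertical bar, n = 3), for infliximab at 6 and 24 h, CDP870 at 6 and 24 h and untreated cells at 0 h from left to right. The infliximab points lie below the CDP870 and untreated points in most panels, and the groups lie closest in the panel of HSPD1.

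HSP90AA1 is the stress-inducible form of cytosolic HSP90. Its level was 10.72, 10.64 and 10.63 after 6 h and 10.51, 10.72 and 10.60 after 24 h of infliximab, 10.93, 10.88 and 10.89 after 6 h and 10.91, 11.01 and 10.84 after 24 h of CDP870, and 10.87, 10.85 and 10.88 in untreated cells. Every infliximab array lay below every CDP870 and untreated array. The differences from 0 h were small, at -0.20 after 6 h and -0.26 after 24 h of infliximab (SE 0.08), and neither was called. Of its other 3 probe sets, 2 had called differences at 24 h of -0.38 and -0.34. With the mean of its 4 probe sets the differences were -0.24 and -0.28, both called.

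HSP90AB1 is the form of cytosolic HSP90 that most cells make constitutively. Its level was 10.50, 10.58 and 10.72 on the infliximab 6 h arrays, 10.96, 10.85 and 10.55 on the infliximab 24 h arrays, 11.07, 11 and 11.11 with CDP870 at 6 h, 11.10, 11.11 and 11.11 with CDP870 at 24 h, and 11.01, 11.01 and 11.10 at 0 h. All infliximab arrays lay below all others. The infliximab 24 h arrays were spread over the widest range, and replicates 5 and 6 came nearest to the untreated cells. The difference from 0 h was -0.44 ± 0.10 after 6 h of infliximab, a called 1.36-fold lower level, and -0.25 ± 0.10 after 24 h, which was not called. Its other 2 probe sets were not called at 6 h, at -0.28 ± 0.13 and -0.06 ± 0.42, and with the mean of all 3 the 6 h difference was -0.26 ± 0.18 and not called. Of these, 1 probe set read 7.76 on replicate 6 of infliximab at 24 h and between 9.69 and 10.39 on the other arrays. That replicate is the array with the highest 3′ minus 5′ differences.

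FKBP4, or FKBP52, is a prolyl isomerase that binds HSP90 and serves steroid receptors. It had the largest difference of the set at 6 h. Its level was 7.06, 7.09 and 7.19 after 6 h and 7.48, 7.34 and 7.11 after 24 h of infliximab, 7.85, 7.81 and 8.03 after 6 h and 7.84, 7.84 and 7.94 after 24 h of CDP870, and 7.87, 7.91 and 7.88 in untreated cells. No infliximab array reached 7.5, and no other array fell below 7.8. It was lower than at 0 h by 1.71-fold after 6 h (-0.77 ± 0.10) and by 1.49-fold after 24 h of infliximab (-0.58 ± 0.10), both called. A second probe set gave -0.79 and -0.78, also called. Its remaining tested probe set, at a low level, was called at neither time. The means of that probe set were 2.54 and 2.48 with infliximab and 2.92 at 0 h.

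CHORDC1 (morgana) binds HSP90 through its CHORD domains. Its level was 6.90, 6.81 and 6.76 on the infliximab 6 h arrays, 5.98, 6.65 and 6.84 on the infliximab 24 h arrays, 7.14, 7.23 and 7.19 with CDP870 at 6 h, 7.41, 7.61 and 7.06 with CDP870 at 24 h, and 7.05, 6.82 and 7.19 at 0 h. Replicate 5 of infliximab at 24 h was the lowest array by a wide margin, and replicate 3 at 0 h lay within the range of the infliximab 6 h arrays. The differences from 0 h were -0.20 ± 0.19 after 6 h and -0.53 ± 0.19 after 24 h of infliximab, and neither was called. Against CDP870 the difference was -0.36 at 6 h and a called -0.87 at 24 h, which was -0.52 and not called without the 3 arrays that correlate least with the rest.

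HSPH1, also HSP105, is a nucleotide exchange factor and holdase of the HSP110 family. Its level was 9.23, 9.07 and 9.05 after 6 h and 8.69, 9.14 and 9.14 after 24 h of infliximab, 9.68, 9.63 and 9.74 after 6 h and 9.80, 9.91 and 9.61 after 24 h of CDP870, and 9.63, 9.39 and 9.60 in untreated cells. The infliximab arrays did not overlap with the other groups. The lowest of all was replicate 5 of infliximab at 24 h, and the lowest of the untreated arrays was replicate 3. The difference from 0 h was -0.42 ± 0.13 after 6 h of infliximab, not called, and -0.55 ± 0.13 after 24 h, called. Another of its probe sets had called differences of -0.61 and -0.62 at these times. Its remaining tested probe set was called at neither time, with means of 7.60 and 7.15 with infliximab and 7.98 at 0 h. There replicate 3 at 0 h, at 7.37, lay within the infliximab 6 h arrays, which ran from 7.27 to 7.87.

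HSPA4L belongs to the same HSP110 family. It read 5.60, 5.59 and 5.49 on the infliximab 6 h arrays, 5.29, 5.26 and 5.58 on the infliximab 24 h arrays, 6.13, 6.05 and 6.03 with CDP870 at 6 h, 6.19, 6.16 and 5.93 with CDP870 at 24 h, and 6.25, 5.73 and 6.23 at 0 h. Infliximab values stayed at or below 5.60, and the only array of another group below 5.9 was replicate 3 at 0 h. The difference from 0 h was called at both times: -0.51 ± 0.13 after 6 h and -0.69 ± 0.13 after 24 h of infliximab, which at 24 h is a 1.62-fold lower level. Its second probe set was called at neither time, at -0.48 ± 0.17 and -0.59 ± 0.17.

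DNAJA1 is a J-domain protein that stimulates the ATPase of HSP70. Its level was 9.37, 9.43 and 9.41 after 6 h and 9.11, 8.90 and 9.40 after 24 h of infliximab, 9.85, 9.94 and 9.88 after 6 h and 9.94, 9.97 and 9.82 after 24 h of CDP870, and 9.77, 9.44 and 9.73 in untreated cells. It was lowest with infliximab and, alone among the 9 genes, its CDP870 arrays all lay above every untreated array at both times. Replicate 3 at 0 h, at 9.44, exceeded the highest infliximab 6 h array by only 0.01. The difference from 0 h was -0.24 ± 0.12 after 6 h, not called, and -0.51 ± 0.12 after 24 h of infliximab, called. With CDP870 it was 0.24 and 0.26 (SE 0.12), neither called. A second probe set gave -0.25 and a called -0.40 with infliximab.

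The mitochondrial pair HSPE1 and HSPD1 had differences of unequal size, and whether they differ from each other was not tested. HSPE1, the lid of the folding chamber, read 9.49, 9.20 and 9.48 on the infliximab 6 h arrays, 9.07, 9.25 and 9.28 on the infliximab 24 h arrays, 9.69, 9.72 and 9.79 with CDP870 at 6 h, 9.84, 9.94 and 9.59 with CDP870 at 24 h, and 9.76, 9.77 and 9.76 at 0 h. All infliximab arrays lay below all others. The difference from 0 h was called at both times, at -0.37 ± 0.11 after 6 h and -0.56 ± 0.11 after 24 h of infliximab, a 1.48-fold lower level. HSPD1 (HSP60), which forms the chamber itself, read 11.18, 11.18 and 11.11 after 6 h and 11.07, 11.24 and 11.16 after 24 h of infliximab, 11.30, 11.30 and 11.33 after 6 h and 11.34, 11.38 and 11.23 after 24 h of CDP870, and 11.31, 11.21 and 11.33 in untreated cells. Its infliximab 6 h arrays lay just below the untreated ones, while at 24 h the groups overlapped. The difference was -0.13 ± 0.08 at both times and was not called, and none of its 4 tested probe sets was called against 0 h at either time. HSPE1 rests on a single probe set, and its 6 h call was kept in 8 of 23 alternative settings.

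**Figure D3:**
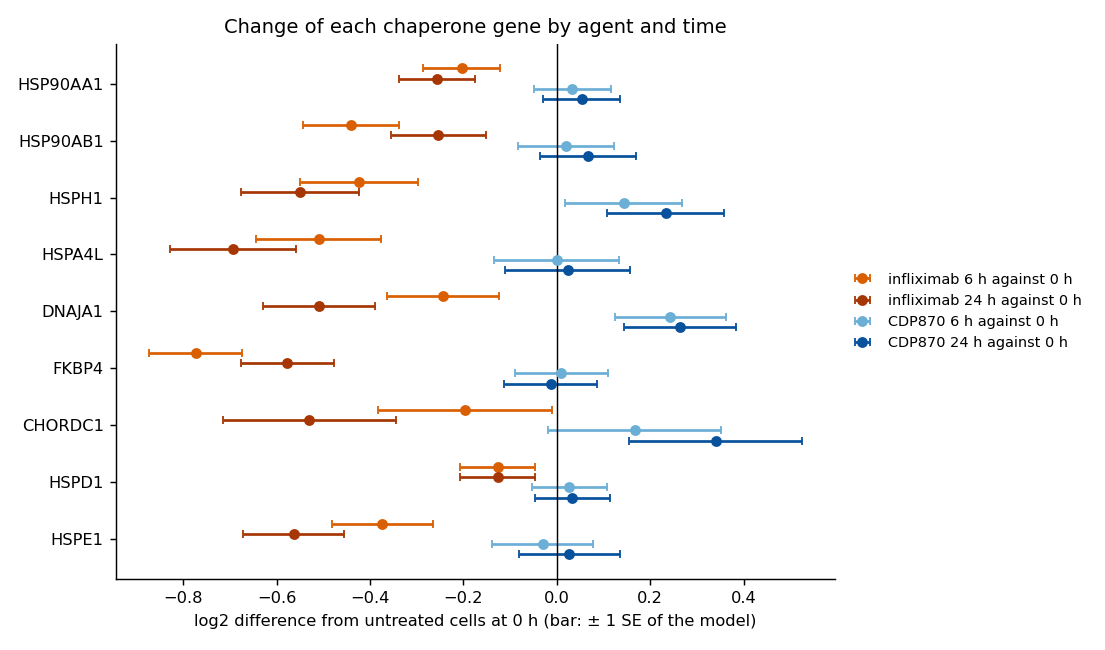
Log2 difference from untreated cells at 0 h (horizontal axis, bars of 1 SE of the model either side) for each of the 9 measured chaperone genes, with infliximab and CDP870 at 6 and 24 h. The infliximab points are below 0 for all 9 genes, and the CDP870 points lie between -0.03 and 0.34.

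With infliximab at 6 h, 4 of the 9 genes were called lower than at 0 h (HSP90AB1, FKBP4, HSPA4L and HSPE1) and none higher, beside 5.7% of all genes called lower. At 24 h, 5 of 9 were called lower (HSPH1, HSPA4L, DNAJA1, FKBP4 and HSPE1), beside 3.45% of all genes. The infliximab arrays did not overlap with the untreated arrays in 8 of 9 genes at 6 h and in 7 of 9 at 24 h. The share of all genes without overlap was not computed, so these counts are a description only. At the level of single probe sets, 6 of 23 were called lower at 6 h, beside 4.4% of all probe sets, and 10 of 23 at 24 h, beside 2.79%. Without the 3 arrays that correlate least with the rest, 5 genes were called at 6 h and 3 at 24 h. With the spike-in mean as a covariate, no gene was called at 6 h, although the median difference was -0.59. In a fit of only the infliximab 24 h and 0 h arrays no gene was called at 24 h, with the median unchanged at -0.53. Leaving out 1 array at a time gave 1 to 5 calls at 6 h, with 1 call without infliximab 6 h replicate 8, infliximab 6 h replicate 9 or 0 h replicate 4 and 2 without infliximab 6 h replicate 10 or 0 h replicate 2. At 24 h it gave 3 to 6, with 3 without 0 h replicate 2 or 0 h replicate 4.

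**Figure D4:**
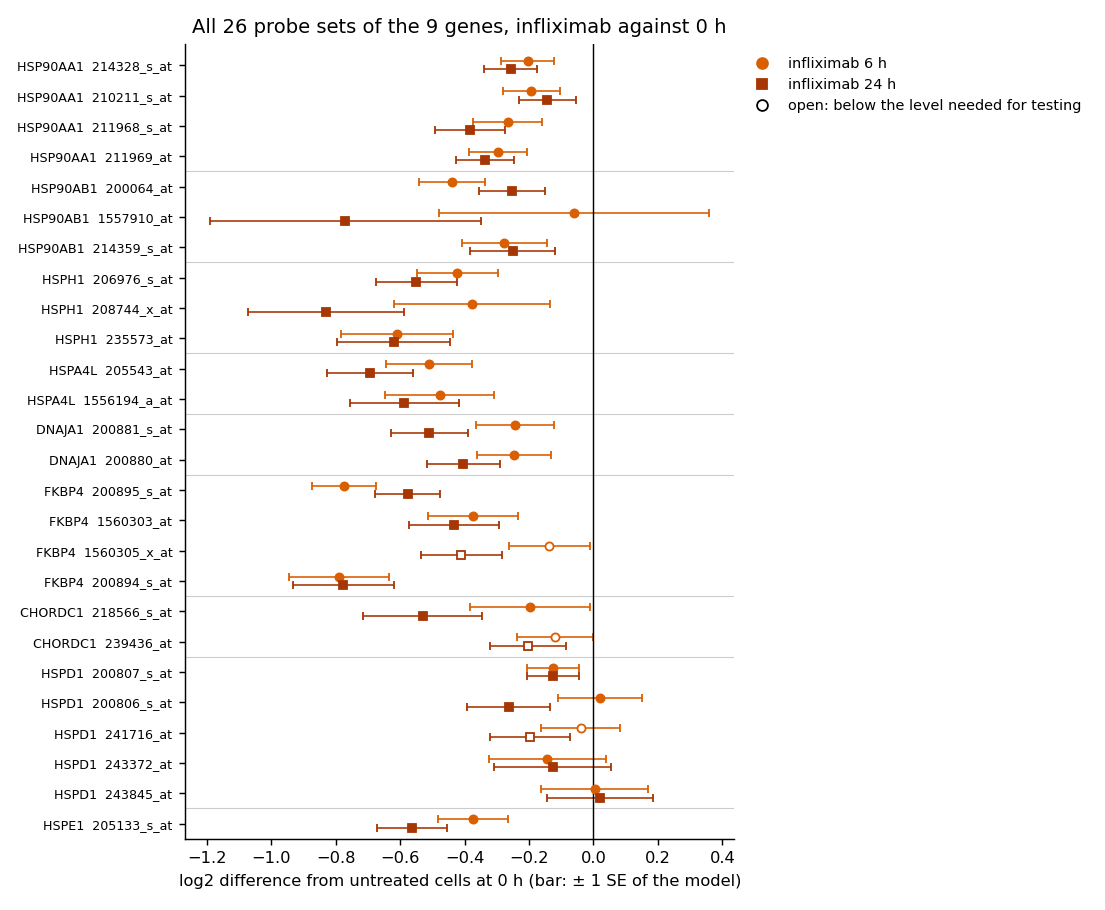
Log2 difference from 0 h (horizontal axis, bars of 1 SE of the model either side) of all 26 probe sets of the 9 genes with infliximab at 6 h (circles) and 24 h (squares), open where the probe set was too low to be tested. Nearly all points lie below 0, the lowest at -0.83 for a probe set of HSPH1, and those of HSPD1 lie nearest to 0.

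With CDP870 the same genes read close to their untreated level. Against 0 h the differences ran from -0.03 for HSPE1 to 0.24 for DNAJA1 at 6 h, and from -0.01 for FKBP4 to 0.34 ± 0.19 for CHORDC1 at 24 h. None of the 9 genes was called by limma at either time, beside 0% of all genes in either direction, and 0 of 23 probe sets at 6 h and 1 of 23 at 24 h had an unadjusted p under 0.05. From 6 to 24 h of CDP870 the genes moved by -0.02 for FKBP4 to 0.17 for CHORDC1. This last comparison uses CDP870 arrays alone. None of the 9 genes passed limma's test (adjusted p = 0.998 for each, 1 of 23 probe sets with an unadjusted p under 0.05), beside 0% of all genes. A missed threshold does not show that the levels were equal.

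Set directly against CDP870, infliximab gave lower levels at both times. At 6 h, 5 of 9 genes were called lower (HSP90AB1, FKBP4, HSPH1, HSPA4L and DNAJA1), beside 4.95% of all genes. At 24 h, 7 of 9 were called lower, all but HSP90AB1 and HSPD1, beside 2.14%. The 24 h call of HSP90AA1 (-0.31) was kept in 8 of 23 alternative settings. The largest differences were -0.78 ± 0.10 for FKBP4 at 6 h and -0.87 ± 0.19 for CHORDC1 and -0.78 ± 0.13 for HSPH1 at 24 h. The arrays of the agents did not overlap in any of the 9 genes at 6 h or in 8 at 24 h, HSPD1 being the exception. Here too the share of all genes without overlap was not computed, and nothing is read from these counts. By probe set, 9 of 23 were called at 6 h, beside 3.98%, and 16 of 23 at 24 h, beside 1.79%. Without the 3 least correlated arrays 7 and 5 genes were called at 6 and 24 h. A fit of only the 24 h arrays called none at 24 h, and leaving out CDP870 6 h replicate 16 brought the 6 h count to 1. It was 2 without any 1 infliximab 6 h array and 3 without CDP870 6 h replicate 14 or 15.

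Between 6 and 24 h of infliximab the genes moved in both directions, and a missed threshold here does not show that their levels were equal. From 6 to 24 h the differences ran from -0.33 ± 0.19 for CHORDC1 and -0.27 ± 0.12 for DNAJA1 to 0.20 ± 0.10 for FKBP4 and 0.19 ± 0.10 for HSP90AB1. FKBP4 and HSP90AB1 were nearer to 0 h at 24 h than at 6 h, and the other genes were as low or lower, but none of these differences was called, beside 0% of all genes, and 2 of 23 probe sets had an unadjusted p under 0.05. Without infliximab 24 h replicate 7, DNAJA1 alone was called. The difference between the agents in their change from 6 to 24 h ran from -0.51 ± 0.26 for CHORDC1 to 0.22 ± 0.14 for FKBP4, with none called, beside 0% of all genes, and 0 of 23 probe sets with an unadjusted p under 0.05.

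Across the 15 arrays the 9 genes varied together. The mean of the genes, each centred on its own average, was -0.21, -0.26 and -0.24 with infliximab at 6 h, -0.42, -0.29 and -0.26 with infliximab at 24 h, 0.19, 0.18 and 0.22 with CDP870 at 6 h, 0.27, 0.33 and 0.13 with CDP870 at 24 h, and 0.17, 0.02 and 0.19 at 0 h. Every infliximab array was below every other array, and 0 h replicate 3 was the lowest of the rest. Pearson's r of a gene with the mean of the other 8 was highest for HSPH1 (0.97) and HSP90AA1 (0.95) and lowest for FKBP4 (0.79) and HSP90AB1 (0.72), the genes whose infliximab response was larger at 6 h than at 24 h. These correlations describe 15 arrays that fall into groups, so they mostly carry the difference between infliximab and the rest. The genes were chosen with that difference known, so a high r was in part set by the choice. Genes outside the set reached similarly high values, as given below.

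The genes outside the set whose level followed the mean of the 9 most closely over the 15 arrays were PSMD11, a proteasome lid subunit (r = 0.962), UMPS, an enzyme of pyrimidine synthesis (0.961), the histone-binding protein RBBP7 (0.960) and CCT6A, a subunit of the cytosolic chaperonin (0.960). They were followed by the HSP70 and HSP90 adaptor STIP1 (0.954), STRAP (0.953), the endoplasmic reticulum J-domain protein DNAJB11 (0.951) and ATP5MC3, a subunit of ATP synthase (0.950). PSMD11 differed from 0 h by -0.45 and -0.55 with infliximab at 6 and 24 h and by 0.06 and 0.03 with CDP870. The other 7 had differences with infliximab between -0.21 and -0.51.

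To see whether the wider chaperone network moved as well, 72 further genes in 8 lists were examined, of which 64 could be tested. These lists too were chosen with earlier results of the arrays known, so their limma p-values are given beside the values and are not independent evidence. Where a call is said to be kept, that is the number of 23 alternative settings, most of which leave out 1 array. With infliximab, 11 of the 64 fell and 1 rose at 6 h, beside 5.7% and 4.52% of all genes, and 15 fell and 2 rose at 24 h, beside 3.45% and 4.75%. The median differences were -0.17 and -0.19. Against CDP870, 8 fell and 1 rose at 6 h, beside 4.95% and 5.55%, and 13 fell and 2 rose at 24 h, beside 2.14% and 6.06%. With CDP870 against 0 h no related gene passed limma's test at either time, with 3 of 64 at 6 h and 2 of 64 at 24 h at an unadjusted p under 0.05. Without the 3 least correlated arrays, 15 genes passed at 6 h and 4 at 24 h of infliximab against 0 h, and with the spike-in covariate 0 and 10.

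**Figure D5:**
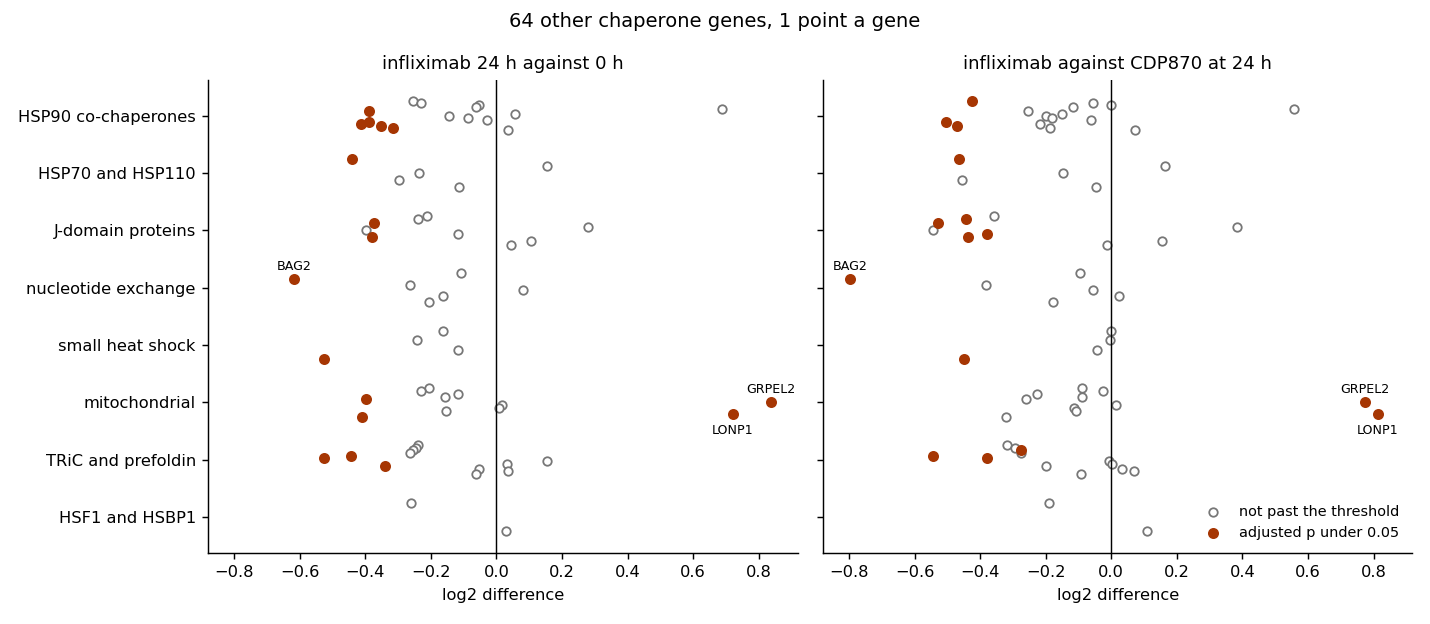
Log2 difference (horizontal axis) of 64 related chaperone genes by list, 1 point a gene, for infliximab at 24 h against 0 h (left) and against CDP870 at 24 h (right), filled where limma's adjusted p was under 0.05. Most filled points lie below 0, with BAG2 the lowest, and the mitochondrial genes GRPEL2 and LONP1 lie above 0.

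Of 15 tested HSP90 cochaperones, 4 fell with infliximab at 6 h and 5 at 24 h. STIP1 (HOP), which links HSP70 to HSP90, read 7.88, 7.94 and 7.95 on the infliximab 6 h arrays, 7.96, 7.91 and 7.91 on the infliximab 24 h arrays, 8.29, 8.29 and 8.39 with CDP870 at 6 h, 8.44, 8.44 and 8.41 with CDP870 at 24 h, and 8.32, 8.19 and 8.44 at 0 h. The infliximab arrays formed a narrow band below all others. STIP1 fell by 0.39 ± 0.08 on the log2 scale at 6 h (limma adjusted p = 0.00952) and at 24 h (adjusted p = 0.0111). It was also lower than with CDP870, by 0.40 at 6 h (limma difference -0.40, adjusted p = 0.00793) and by 0.50 at 24 h (difference -0.50, adjusted p = 0.00195). With the mean of its probe sets the 6 h values were -0.24 against 0 h (adjusted p = 0.411) and -0.22 against CDP870 (adjusted p = 0.441). STUB1 (CHIP), a ubiquitin ligase that acts on chaperone clients, changed by -0.53 ± 0.11 and -0.41 ± 0.11 (adjusted p = 0.00956 and 0.039). The 24 h call of STUB1 was kept in 5 of 23 alternatives, and without 0 h replicate 3 the value was -0.27 (adjusted p = 0.107). NUDC, an HSP90-associated protein, changed by -0.47 and -0.39 (SE 0.08, adjusted p = 0.00297 and 0.00982), and TTC4, a further HSP90-binding protein, by -0.36 and -0.32 (SE 0.08, adjusted p = 0.0152 and 0.0319). Without the 3 least correlated arrays, which leaves replicate 7 alone for infliximab at 24 h, the 24 h values were -0.36 for NUDC and -0.38 for TTC4. The 24 h calls were kept in 21 of 23 alternatives for NUDC and in 14 for TTC4. SUGT1, which links HSP90 to kinetochore and immune receptor clients, was lower at 24 h by -0.35 ± 0.09 (adjusted p = 0.0383), a call kept in 7 of 23 alternatives. With the mean of its probe sets SUGT1 gave -0.22 (adjusted p = 0.219).

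HSPA14, a ribosome-associated HSP70, was the only one of 5 tested HSP70 and HSP110 genes called against 0 h. This was with infliximab at 24 h (-0.44 ± 0.11, limma adjusted p = 0.0302), and 0 were called at 6 h, where HSPA14 differed by -0.31. The HSPA14 call was kept in 14 of 23 alternatives, and without the 3 least correlated arrays its 24 h value was -0.475. HSPA1A and HSPA1B, the stress-inducible HSP70 genes, had no probe set of their own. Of 9 J-domain proteins, 0 were called at 6 h and 2 at 24 h against 0 h. DNAJB1 (HSP40), a classical heat shock gene, read 7.18, 7.16 and 7.16 after 6 h and 7.35, 6.96 and 7.11 after 24 h of infliximab, 7.42, 7.56 and 7.65 after 6 h and 7.68, 7.60 and 7.73 after 24 h of CDP870, and 7.50, 7.41 and 7.63 in untreated cells. Infliximab arrays lay below all untreated arrays. Its change was -0.35 ± 0.11 at 6 h (adjusted p = 0.0553) and -0.37 ± 0.11 at 24 h (adjusted p = 0.0475), and it was lower than with CDP870 at both times, by 0.53 at 24 h (difference -0.53, adjusted p = 0.00724). The DNAJB1 call at 24 h against 0 h was kept in 5 of 23 alternatives, that against CDP870 at 6 h in 13 and that at 24 h in 22. DNAJC2, which works at the ribosome, changed by -0.38 ± 0.09 at 24 h (adjusted p = 0.0204), a call kept in 18 of 23 alternatives. Without the 3 least correlated arrays the DNAJC2 value was -0.42. DNAJA4, another J-domain protein, was called only against CDP870, at -0.54 at 6 h and -0.44 at 24 h (SE 0.10, adjusted p = 0.00356 and 0.0135). The 6 h value was -0.19 (adjusted p = 0.275) with the mean of its probe sets, and the 24 h value -0.28 (adjusted p = 0.162) without the 3 least correlated arrays.

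The exchange factor BAG2 had the largest fall among the called related genes at 24 h in its probe set with the highest mean level. It read 7.07, 7.31 and 7.36 on the infliximab 6 h arrays, 6.84, 6.78 and 7.13 on the infliximab 24 h arrays, 7.57, 7.45 and 7.64 with CDP870 at 6 h, 7.81, 7.81 and 7.52 with CDP870 at 24 h, and 7.56, 7.36 and 7.68 at 0 h. The infliximab 24 h arrays lay below every CDP870 and untreated array. BAG2 changed by -0.62 ± 0.13 at 24 h against 0 h (limma adjusted p = 0.00978) and by -0.80 against CDP870 (adjusted p = 0.00157). Without the 3 least correlated arrays, with replicate 7 alone for infliximab at 24 h, its difference from 0 h was -0.49. The 24 h call of BAG2 against 0 h was kept in 21 of 23 alternatives. With the mean of its probe sets BAG2 gave -0.42 (adjusted p = 0.0152) and -0.30 (adjusted p = 0.0743). HSPBP1 and BAG5, also exchange factors, were lower at 6 h, both by -0.37 ± 0.10 (adjusted p = 0.0369 and 0.0399), calls kept in 11 and 9 of 23 alternatives. BAG3, which is strongly induced by HSF1 in other settings, differed by -0.24 and -0.26 (adjusted p = 0.216 and 0.199). The small heat shock protein HSPB1 differed by -0.17 and -0.16 (adjusted p = 0.325 and 0.364), and HSF1 itself by -0.20 and 0.03 (adjusted p = 0.536 and 0.946). The 1 called gene of the small heat shock list was listed as HSPB11 and is now named IFT25, a component of intraflagellar transport. It changed by -0.44 and -0.53 (SE 0.09, adjusted p = 0.00685 and 0.00246).

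The cytosolic chaperonin TRiC and its partner prefoldin, which fold actin and tubulin, had 2 of 12 tested genes lower at 6 h and 3 at 24 h. The TRiC subunit CCT7 changed by -0.56 ± 0.11 at 6 h (limma adjusted p = 0.00597) and by -0.53 ± 0.11 at 24 h (adjusted p = 0.00981). CCT6A changed by -0.44 ± 0.10 at 24 h (adjusted p = 0.0151), a call kept in 19 of 23 alternatives. Without the 3 least correlated arrays its value was -0.37. The prefoldin subunit PFDN2 changed by -0.34 ± 0.09 at both times (adjusted p = 0.0255 and 0.0306), and at 24 h by -0.21 (adjusted p = 0.348) without the 3 least correlated arrays.

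The mitochondrial list of 11 genes went both ways. TRAP1, the mitochondrial HSP90, read 8.15, 8.25 and 8.23 after 6 h and 8.40, 8.55 and 8.22 after 24 h of infliximab, 8.59, 8.61 and 8.73 after 6 h and 8.69, 8.69 and 8.75 after 24 h of CDP870, and 8.70, 8.92 and 8.78 in untreated cells. It was lowest with infliximab at 6 h and the infliximab arrays lay below all other groups. TRAP1 changed by -0.59 ± 0.10 at 6 h (limma adjusted p = 0.00211) and by -0.41 ± 0.10 at 24 h (adjusted p = 0.0204). DNAJA3, a mitochondrial J-domain protein, was lower at 6 h (-0.31 ± 0.09, adjusted p = 0.043), a call kept in 8 of 23 alternatives. GRPEL1, the exchange factor of the mitochondrial HSP70, was lower at 24 h (-0.40 ± 0.10, adjusted p = 0.0336), and at -0.24 (adjusted p = 0.372) without the 3 least correlated arrays. GRPEL2, a second exchange factor, rose. It read 7.53, 7.51 and 7.24 on the infliximab 6 h arrays, 7.07, 7.76 and 7.55 on the infliximab 24 h arrays, 6.70, 6.64 and 6.72 with CDP870 at 6 h, 6.73, 6.85 and 6.48 with CDP870 at 24 h, and 6.76, 6.41 and 6.70 at 0 h. All infliximab arrays lay above all others, and the changes against 0 h were 0.80 ± 0.16 and 0.84 ± 0.16 (adjusted p = 0.0072 and 0.00621). With the mean of its probe sets the 24 h change of GRPEL2 was 0.63 (adjusted p = 0.0725). The protease LONP1, which degrades damaged matrix proteins, read 8.53, 8.63 and 8.46 after 6 h and 9.15, 9.06 and 8.61 after 24 h of infliximab, 8.19, 7.99 and 8.22 after 6 h and 8.13, 8.09 and 8.16 after 24 h of CDP870, and 8.08, 8.36 and 8.22 in untreated cells. All infliximab arrays lay above all others. At 6 h the difference was 0.32 ± 0.13 (adjusted p = 0.144). LONP1 rose by 0.72 ± 0.13 at 24 h (adjusted p = 0.00394), and by 0.81 against CDP870 (adjusted p = 0.00149). Without the 3 least correlated arrays the 24 h change of LONP1 from 0 h was 0.46 (adjusted p = 0.0761). HSPA9, the mitochondrial HSP70, stayed within 0.01 of its 0 h level with infliximab (differences 0.01 and 0.01, adjusted p = 0.957 and 0.98).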

How the data were processed

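Biotin-labelled cRNA from 15 THP-1 samples was hybridised to Affymetrix arrays, per the labels' protocols. The values deposited by the authors are log2 probe set summaries of 54675 probe sets, 62 of them controls. GCRMA and GCOS 1.3.0 appear in the submitters' processing notes without a stated role. The scale has no unit of amount, and a shift common to nearly all genes would be missed. Probe sets were named from the platform annotation, with current names from RefSeq (GRCh38.p14).

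Probe sets above the array's 50th percentile on at least 3 of 15 arrays were tested (28897, of 13607 genes), with 1 mean per group over all arrays, in limma 3.58.1 and R 4.3.3. Tests were two-sided with Benjamini-Hochberg adjustment within each of 9 comparisons. The fit was tested on simulated data. Python 3.11.15 with matplotlib 3.10.9 drew the figures. Only the design text calls the arrays biological replicates, and separate cultures are described nowhere else. The p-values therefore reflect the spread among these arrays, part of which may be technical. The number of arrays limits precision.

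The members and lists were chosen with earlier results of these data known. Named are all members, up to 4 called genes per related list and comparison by smallest p, genes always looked up (HSPA1A, HSPA1B, DNAJB1, HSPB1, BAG3 and HSF1), and the 8 genes most correlated with the members. HSPA9 was added after its values were seen. Alternatives changed the normalization, filter, weights, spike-in covariate, arrays fitted and the probe set that represents a gene, and left out arrays.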

Additional observations from a re-analysis of the deposited data

Results flagged for a closer look

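Genes are given here because every infliximab array lay below every untreated array while every CDP870 array lay above them, at the same time. DNAJA1, an HSP70 cochaperone, did so in its main probe set at both times: the log2 difference from 0 h was -0.24 with infliximab and 0.24 with CDP870 at 6 h, and -0.51 with infliximab and 0.26 with CDP870 at 24 h. Its other probe set did so at 24 h, at -0.40 with infliximab and 0.17 with CDP870. For the main probe set of DNAJA1 the direct comparison of infliximab with CDP870 gave -0.49 at 6 h and -0.77 at 24 h, both called. These calls are a description only, since DNAJA1 was chosen with these arrays in view. DNAJA4, another J-domain protein, did so at 6 h, at -0.24 with infliximab and 0.30 with CDP870. For DNAJA4 the direct comparison of infliximab with CDP870 at 6 h gave -0.54 ± 0.10 (limma adjusted p = 0.00356, n = 3 arrays each), but -0.19 ± 0.11 (adjusted p = 0.275) with the mean of its probe sets. DNAJA4 was listed because these same arrays were already separated, so the p-values are not independent support.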

How the results depend on the processing

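No called value of a chaperone gene reversed under any alternative. Counts of called genes of the set of 9 moved by over 1.5 times as follows. Against 0 h at 6 h of infliximab the count of 4 became 2 with median centring, 7 with array weights and 0 with the spike-in covariate, and leaving out single arrays gave 1 to 5. At 24 h the count of 5 became 0 in a fit of only the arrays compared and 3 without the 3 least correlated arrays (3 to 6 without single arrays). Against CDP870 the count of 5 at 6 h became 8 with array weights and 3 with the spike-in covariate (1 to 6 without single arrays), and the count of 7 at 24 h became 0 in a fit of only the arrays compared (5 to 7). Between 24 and 6 h of infliximab it was 0 to 1. For the 64 related genes, the count of 12 at 6 h against 0 h became 26 with array weights, 0 with the spike-in covariate and 7 with only the arrays compared (7 to 17 without single arrays, 7 without infliximab 6 h replicate 8 or 9). The count of 17 at 24 h became 10 without a filter, 10 with the covariate, 0 with only the arrays compared and 4 without the 3 arrays (9 to 16, 9 without 0 h replicate 2). Against CDP870, the count of 9 at 6 h became 24 with array weights, 2 with the covariate, 17 with only the arrays compared and 22 without the 3 arrays (4 to 15), and that of 15 at 24 h became 1 with only the arrays compared and 8 without the 3 arrays (9 to 20). Fits of only the arrays compared have fewer samples, and the cause of the other moves was not tested. Single calls were kept in 2 of 23 alternatives (CCT4 against CDP870 at 24 h) to 23 of 23 (FKBP4 and IFT25 against CDP870 at 6 h). No paired analysis was possible because the replicate numbers run on from 2 to 16 and no number is shared by the groups compared.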
